A study of Homo sapiens with 54 samples.

Results

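The genes described here are 40 genes of endoplasmic reticulum (ER) protein folding, ER-associated degradation (ERAD) and the unfolded protein response, read in every library of 2 human tumour lines. They were taken by symbol from a list of ER folding, degradation and stress sensor genes. The rule uses no measured values, but it was set with earlier results of these data known. They make up 40 of the 50037 gene entries of the deposited table. Of these, 38 passed a filter of at least 1 FPKM (fragments per kilobase of transcript, scaled to sequencing depth) in at least 3 of the 27 libraries of a line, in both lines. EDEM2 had a maximum of 0.52 FPKM among HCT116 libraries and of 0.898 among those of HepG2. DERL3 was listed at 0 in every library, so neither gene was tested. HCT116 derives from a colon cancer. HepG2 derives from a liver cancer, and its labels use the name liver cancer stem cell. Cells in complete medium with serum received the cytokine IL-6 or IL-10 (each 50 ng/mL), the cytokine TNF-α (100 ng/mL) or the mTOR kinase inhibitor Torin1 (1 µM), for 3 h or 6 h. The control, NC, was an equal volume of complete medium, and its labels give no time, so a treatment and the time since the medium was handled cannot be told apart in a comparison with NC. Each line has 9 groups of 3 libraries, 54 in all, and the comparisons with NC within a line share the same 3 NC libraries.

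The ER folds secreted and membrane proteins with the help of the Hsp70-type chaperone HSPA5 (BiP), its co-chaperones, lectin chaperones and disulfide isomerases, and hands failed products to ERAD for destruction by the proteasome. When unfolded proteins accumulate, the membrane sensors ERN1 (IRE1), EIF2AK3 (PERK) and ATF6 are activated, and the transcription factors XBP1 and ATF6 switch on chaperone and ERAD genes. Hepatocytes secrete plasma proteins in bulk and are known for a large ER. The deposited values give 1 level per gene, so spliced and unspliced XBP1 messages are not separated, and sensor activity is not measured.

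Promoters of several of these genes hold the ER stress response element (ERSE), through which ATF6 and XBP1 act with the CCAAT-binding factor NF-Y. It was defined on genes of this kind, so its share here is no independent finding. RefSeq promoter windows (GRCh38.p14, 250 bases before to 50 after the start, the first window listed per gene) matched 36 of the 40 members, and not PDIA3, DERL1, DERL3 or SEC24D. ERSE was searched as CCAAT, 9 bases and CCACG, and ERSE-II as ATTGG, 1 base and CCACG, each on both strands. Both contain CCACG, and ATTGG is CCAAT read on the opposite strand. ERSE was found in 7 of the 36 windows (19.4%) and in 22 of 27305 windows of all genes (0.0806%), and ERSE-II in 3 (8.3%) and 15 (0.0549%). The ERSE windows belong to HSPA5, HSP90B1, CALR, CANX, CRELD2, ERO1B and XBP1, and the ERSE-II windows to HYOU1, SDF2L1 and HERPUD1. The letters TTCNNGAA of the heat shock element were in 0 of the 36 windows, 7.84% of all and 6.14% of those of genes with at least 1 FPKM in 3 libraries. TGATGNAA of the amino acid response element was in 1 (2.8%), 3.67% and 1.84%. The parts of ERSE were common: CCACG was in 25 of 36 windows (69.4%), 37.9% of all and 49.6% of the 9659 windows of genes with at least 1 FPKM in 3 libraries, and CCAAT was in 27 (75.0%), 35.7% and 36.9%. TGACG, searched as a separate motif, was in 14 (38.9%), 25.0% and 34.5%. The 250 bases before the start are shown for 4 members that fell with Torin1 in HepG2 and for XBP1, which rose there. The capitals mark the ERSE or ERSE-II match on either strand. Positions count back from -1, the last base before the start. HSPA5 (Entrez 3309, chr9:125241344-125241593, minus strand) has ERSE at -66 to -48 and XBP1 (Entrez 7494, chr22:28800570-28800819, minus strand) at -52 to -34, while CRELD2 (Entrez 79174, chr22:49918384-49918633, plus strand) has it on the opposite strand at -80 to -62. ERSE-II lies at -117 to -107 in HERPUD1 (Entrez 9709, chr16:56931892-56932141, plus strand) and on the opposite strand at -188 to -178 in SDF2L1 (Entrez 23753, chr22:21642052-21642301, plus strand).
HSPA5: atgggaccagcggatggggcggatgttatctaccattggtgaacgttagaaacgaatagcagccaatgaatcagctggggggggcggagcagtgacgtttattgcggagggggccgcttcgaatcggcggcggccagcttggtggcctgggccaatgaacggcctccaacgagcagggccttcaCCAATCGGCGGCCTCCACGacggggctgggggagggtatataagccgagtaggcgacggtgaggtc
SDF2L1: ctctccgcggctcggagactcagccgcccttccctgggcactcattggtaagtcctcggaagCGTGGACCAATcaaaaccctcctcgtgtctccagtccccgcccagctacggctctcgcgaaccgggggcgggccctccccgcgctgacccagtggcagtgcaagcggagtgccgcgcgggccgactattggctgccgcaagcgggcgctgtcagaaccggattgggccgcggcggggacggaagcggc
CRELD2: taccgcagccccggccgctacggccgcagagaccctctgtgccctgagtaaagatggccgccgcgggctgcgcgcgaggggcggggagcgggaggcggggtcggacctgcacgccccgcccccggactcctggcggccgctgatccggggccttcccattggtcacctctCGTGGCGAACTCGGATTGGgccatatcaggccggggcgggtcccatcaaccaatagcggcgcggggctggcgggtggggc
HERPUD1: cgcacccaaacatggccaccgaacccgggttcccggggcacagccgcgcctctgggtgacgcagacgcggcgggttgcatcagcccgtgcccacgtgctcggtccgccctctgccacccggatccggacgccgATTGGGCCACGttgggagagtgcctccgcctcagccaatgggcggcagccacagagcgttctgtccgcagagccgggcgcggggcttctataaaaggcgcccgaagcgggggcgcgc
XBP1: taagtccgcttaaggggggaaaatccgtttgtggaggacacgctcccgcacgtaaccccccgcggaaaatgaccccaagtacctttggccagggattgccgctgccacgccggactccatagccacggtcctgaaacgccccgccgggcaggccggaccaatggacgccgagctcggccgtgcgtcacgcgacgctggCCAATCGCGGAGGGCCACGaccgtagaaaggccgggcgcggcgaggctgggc

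Whole reads recovered from the steps between FPKM values came to 38.5 to 55.7 M per library in HCT116 and 46.3 to 93.7 M in HepG2, and HSPA5 rested on at least 27627 and 55372 reads. The fewest reads behind a tested member were 50 in HCT116 and 164 in HepG2, both for TXNDC5. Leaving out HYOU1, CANX and TXNDC5 the median SD within a group was 3.12% of the mean in each line. HYOU1, a large ER chaperone that recharges BiP, ranged from 0.486 to 12.9 FPKM in HCT116 and from 1.06 to 14.4 in HepG2. Libraries of the same group differed more than 10-fold, so its values are not read here. CANX, a lectin chaperone, has a second entry for a copy of its locus that holds most of its signal (21.7 to 35.9 FPKM in HCT116, 32.9 to 40.9 in HepG2, against 3.67 to 5.02 and 5.41 to 6.96 for the named entry). Hepatocyte markers summed to 12231 to 14801 FPKM in HepG2, with 8 of 9 tested, and to 2.24 to 8.69 in HCT116. Of 7 colon epithelium markers 2 were tested in HCT116, CDX2 and EPCAM, and 2 in HepG2, VIL1 and EPCAM. Their summed levels were alike, 165 to 191 FPKM in HCT116 and 146 to 169 in HepG2. In NC, EPCAM stood at 169 FPKM in HCT116 and 111 in HepG2, and CDX2 at 2.25 and 0.0046. VIL1 went the other way, at 0.0145 and 48.8 FPKM. SOCS3, a target of IL-6 signalling, rose with IL-6 in HepG2 (log2 2.06 at 3 h and 3.15 at 6 h). In HCT116 SOCS3 stood at 0.11 at 3 h, which did not pass, and rose by 0.31 at 6 h. NFKBIA, a target of NF-kB, rose with TNF-α in both lines (4.001 in HCT116 and 2.46 in HepG2 at 3 h). IRS2, which FOXO factors activate, rose with Torin1 in both (1.05 and 1.02 at 6 h). In HepG2 NFKBIA also rose at 3 h with IL-6 (1.13), IL-10 (0.90) and Torin1 (0.58). All changes are differences of log2(FPKM + 1), tested with limma across all genes. A gene passed when its adjusted p (Benjamini-Hochberg) was under 0.05. This scale understates the change of genes near 1 FPKM.

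In the NC libraries the ER folding genes stood higher in HepG2 than in HCT116. HSPA5 was 187, 189 and 192 FPKM in the 3 HCT116 NC libraries and 399, 392 and 396 in those of HepG2 (log2 -1.06, SE 0.03, adjusted p = 1.86e-31, HCT116 minus HepG2). The 40 members together summed to 2127 ± 8.19 FPKM in HCT116 and 4133 ± 42.4 in HepG2 (SD, n = 3), 0.59% and 0.958% of all FPKM. Of 38 tested members 3 were higher in HCT116 and 33 lower, against 42.2% and 43.3% of the 12992 genes tested. The lectin chaperone CALR stood at 472 ± 2.87 and 950.2 ± 20.3 FPKM, the disulfide isomerase P4HB at 309 ± 7.07 and 633 ± 22.7, and PDIA4 at 84.1 ± 0.380 and 215 ± 1.70. The largest differences were in XBP1, TXNDC11, a thioredoxin domain protein of the ER, and CREB3L2, a membrane-bound transcription factor. XBP1 was 31.4, 32.3 and 33.2 FPKM in HCT116 and 179.7, 178 and 177 in HepG2 (log2 -2.43, SE 0.06, adjusted p = 3.52e-33). TXNDC11 differed by log2 -1.93 and CREB3L2 by -1.88. The members higher in HCT116 were DERL1, a membrane protein of the ERAD channel (log2 0.79), ERO1B, an oxidase that recharges disulfide isomerases (0.46), and SDF2L1, a luminal partner of the co-chaperone DNAJB11 (0.37). Among the sensors ATF6 stood at 2.17 ± 0.0532 and 2.14 ± 0.0970 FPKM and did not pass (log2 0.01), while EIF2AK3 (-1.27) and ERN1 (-0.26) were lower in HCT116. Scaling every library to the same FPKM sum moved the median of all genes by 0.20 in this comparison, and relative to that shift 31 members were lower and 4 higher.

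Torin1 in HepG2 lowered the chaperones and the translocation machinery while the sensor ERN1 and XBP1 rose. At 6 h, 8 rose and 24 fell of the 38 tested, against 26.1% and 33.8% of all genes (21.1% and 63.2% of members). The median member changed by log2 -0.21, against -0.03 over all genes, and the summed level of the 40 members went from 4133 ± 42.4 to 3499 ± 145 FPKM. HSPA5 was 399, 392 and 396 FPKM in NC, 349, 344 and 342 after 3 h and 259.97, 286 and 272 after 6 h. All 3 libraries at 3 h lay under all NC libraries, and all 3 at 6 h lay lower still (log2 -0.54, SE 0.03, adjusted p = 4.85e-13 at 6 h). SDF2L1 fell most, from 18.02, 19.7 and 19.4 FPKM to 11.9, 12.2 and 12.8 and then 8.17, 8.004 and 10.1 (log2 -1.04, SE 0.10, adjusted p = 7.94e-09), with no overlap of the groups. MANF, an ER protein that cells release under ER stress, was 101, 95.1 and 97.1 FPKM in NC, 74.8, 72.2 and 69.6 at 3 h and 47.5, 50.9 and 46.3 at 6 h (log2 -1.002, SE 0.05, adjusted p = 1.34e-13). SDF2L1 and MANF were the only members to change at least 2-fold on this scale at 6 h. CRELD2, an ER stress-inducible protein (log2 -0.46), CALR (-0.34) and HSPA13, an Hsp70-like protein (-0.17), fell less. HSP90B1, the Hsp90 of the ER, stood at 572, 558 and 579.98 FPKM in NC and 515, 571 and 541 at 6 h, and its difference did not pass (-0.07, adjusted p = 0.0751).

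All 4 co-chaperones with a J domain, which stimulate the ATPase of BiP, fell with Torin1 at 6 h in HepG2. DNAJB9, which recruits BiP to ERN1, was 21.6, 19.2 and 21.4 FPKM in NC, 14.4, 13.5 and 14.2 at 3 h and 9.81, 10.7 and 10.5 at 6 h (log2 -0.94, SE 0.08, adjusted p = 1.13e-09), with no overlap. DNAJC3 changed by log2 -0.35, DNAJB11 by -0.26 and DNAJC10, a disulfide reductase, by -0.13. The isomerases moved less: PDIA4 (-0.27), P4HB (-0.21), PDIA6 (-0.17) and PDIA3 (-0.16) fell. PDIA5 did not pass (0.02), and the oxidase ERO1B rose (0.35) while ERO1A did not pass (-0.02). Of the translocon and COPII coat genes all 4 fell. SEC24D, a cargo adaptor of the COPII coat that buds vesicles from the ER, was 19.9, 19.3 and 19.3 FPKM in NC and 11.1, 11.001 and 10.7 at 6 h (log2 -0.78, SE 0.04, adjusted p = 1.74e-12). SEC61A1 and SEC61B, subunits of the channel through which proteins enter the ER, changed by log2 -0.57 and -0.58, and SSR1, of the translocon-associated complex, by -0.31.

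ERAD genes split. EDEM1, which marks misfolded glycoproteins for export (-0.46), DERL2 (-0.38), HERPUD1, a membrane scaffold of the degradation complex (-0.34), and DERL1 (-0.14) fell, whereas the ubiquitin ligase SYVN1 (0.22) and SELENOS (0.17) rose. Of the sensors and transcription factors 4 of 5 rose at 6 h and EIF2AK3 fell. ERN1 was 2.69, 2.80 and 2.46 FPKM in NC, 4.43, 4.47 and 4.16 at 3 h and 4.39, 4.87 and 4.84 at 6 h, every treated library above every NC library (log2 0.64, SE 0.05, adjusted p = 3.18e-10 at 6 h). XBP1 rose from 179.7, 178 and 177 to 286, 263 and 279.6 at 3 h (0.63, adjusted p = 2.25e-10) and stood at 232, 240.5 and 241 at 6 h (0.42, adjusted p = 6.43e-08). EIF2AK3 was above NC at 3 h (0.20) and below it at 6 h (-0.21): its libraries read 7.23, 6.76 and 7.14 in NC, 8.32, 8.27 and 8.07 at 3 h and 5.71, 6.33 and 5.90 at 6 h. ATF6 rose at 6 h (0.17) and CREB3L2 at both times (0.41 and 0.16).

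At 3 h of Torin1 in HepG2 the same direction was already present in part: 6 rose and 17 fell of the 38 tested, against 19.4% and 26.1% of all genes. Between 3 h and 6 h the fall went on: 2 rose and 25 fell of the 38 tested, against 17.0% and 19.3% of all genes. The largest of these later changes were in MANF (-0.57, adjusted p = 5.58e-09), SEC24D (-0.47, adjusted p = 2.98e-08) and HERPUD1 (-0.46, adjusted p = 8.19e-07). HERPUD1 was 35.2, 35.1 and 35.96 FPKM in NC, 39.2, 37.97 and 38.2 at 3 h, where it did not pass, and 27.1, 27.96 and 28.1 at 6 h. The members that rose from 3 h to 6 h were ERO1B (0.21) and ATF6 (0.11). Set against IL-10 of the same hour in place of NC, Torin1 at 6 h gave 10 higher and 16 lower members of the 38 tested, against 28.7% and 30.3% of all genes (26.3% and 42.1% of members). The median member changed by -0.07 there, against -0.01 over all genes. SDF2L1 stood at -0.92, MANF at -0.94, HSPA5 at -0.39 and XBP1 at 0.52. HERPUD1, PDIA3, PDIA6, DERL1, DNAJC10 and HSPA13, which fell against NC, did not pass against IL-10, and nor did EIF2AK3 (0.03). CANX, among the members lower than NC by its named entry, did not pass against NC once its second entry was added (-0.06, adjusted p = 0.255). Of the members with an ERSE or ERSE-II in the window, 10 were tested and had a median change of -0.34 at 6 h. The 25 tested members without one had -0.21. Both sets ranged across 0. The first includes HYOU1, whose values are not read here, and CANX by its named entry. The split was not tested.

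**Figure D1:**
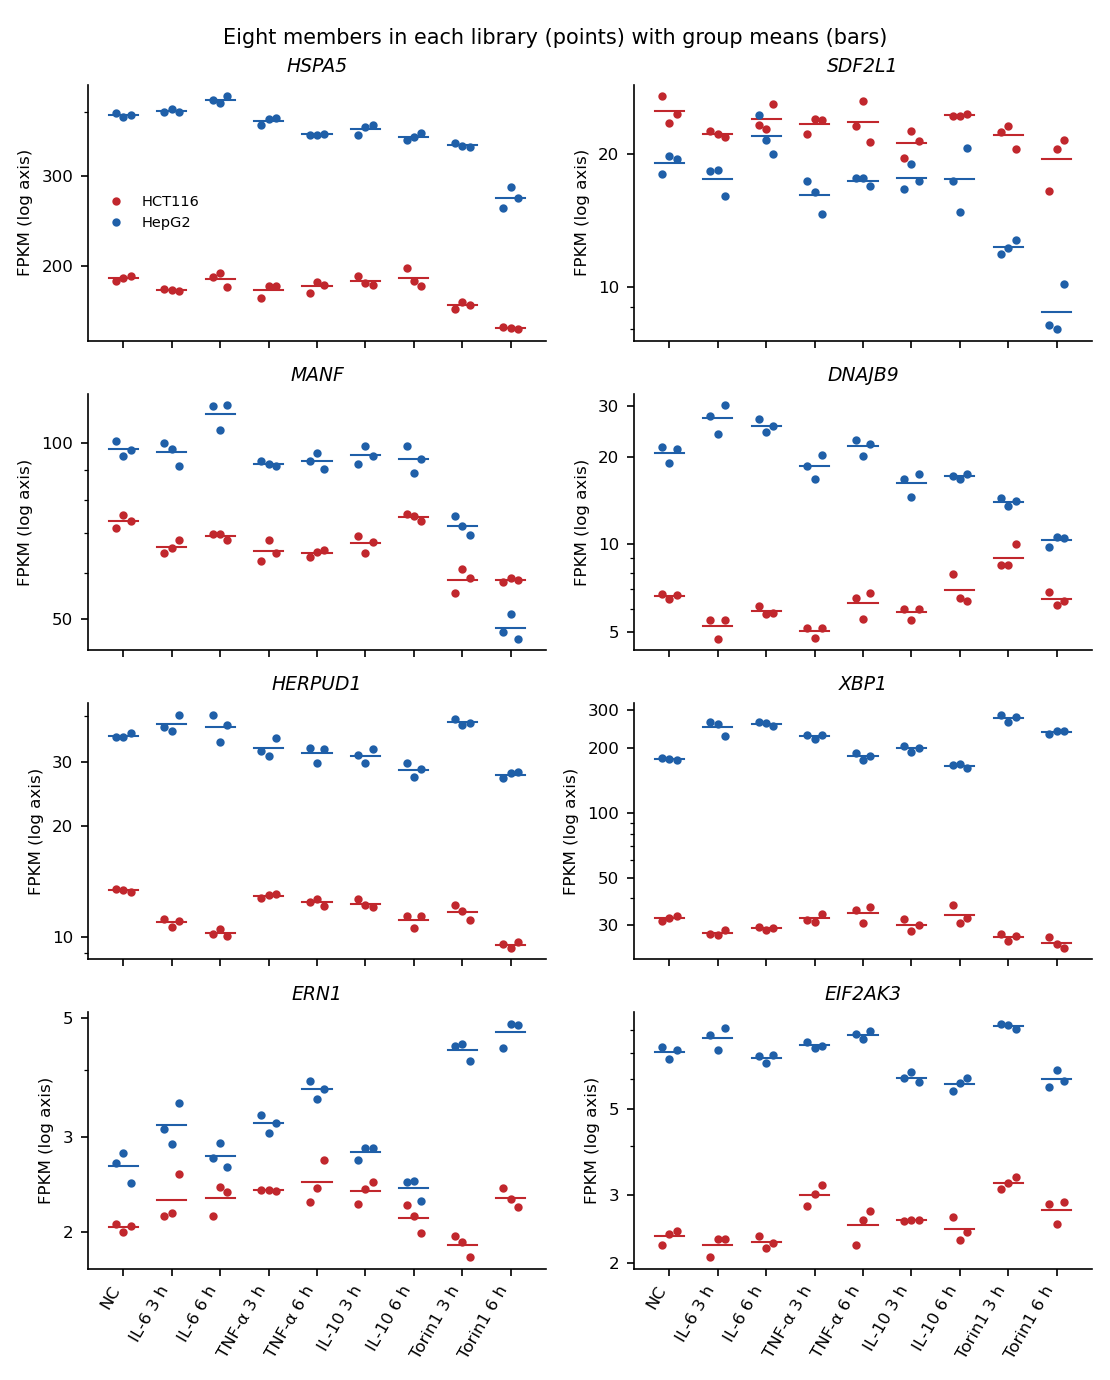
FPKM (log axis) of 8 members in each of the 54 libraries, as points, with a bar at each group mean; HCT116 is red and HepG2 blue, and the groups run along the horizontal axis. HSPA5, SDF2L1, MANF and DNAJB9 step down with Torin1 in HepG2, while XBP1 and ERN1 step up.

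In HCT116 the response to Torin1 was smaller and mixed. At 3 h 9 rose and 9 fell of the 38 tested, against 25.1% and 28.6% of all genes (4 and 18 with total scaling, every library set to the same FPKM sum). At 6 h 12 rose and 13 fell of the 38 tested, against 25.8% and 31.5% of all genes (6 and 17 so scaled). Without that scaling the member shares lay near those of all genes, at 23.7% and 23.7% at 3 h and 31.6% and 34.2% at 6 h. The median member changed by log2 0.01 at 3 h and -0.03 at 6 h, against -0.005 and -0.02 over all genes. Total scaling moved the member medians to -0.075 and -0.10, and those of all genes to -0.09 and -0.08. Shares of all genes here and below are without that scaling, so the scaled counts are not to be read against them. HSPA5 was 187, 189 and 192 FPKM in NC, 165, 170.4 and 168 at 3 h and 152, 151 and 150.5 at 6 h (log2 -0.32, SE 0.03, adjusted p = 7.45e-09 at 6 h), with no overlap. HERPUD1 fell most at 6 h, from 13.5, 13.4 and 13.2 to 9.56, 9.33 and 9.64 (log2 -0.45, SE 0.03, adjusted p = 1.91e-10). XBP1 fell at both times, from 31.4, 32.3 and 33.2 FPKM to 27.4, 25.4 and 26.8 and 26.5, 24.5 and 23.6 (-0.37, adjusted p = 4.85e-05 at 6 h). SDF2L1 (-0.35), DNAJB11 (-0.34) and MANF (-0.33) also fell at 6 h. HSPA13 rose from 14.9, 13.4 and 15.2 FPKM to 22.6, 21.2 and 24.6 at 3 h and 20.04, 19.7 and 20.7 at 6 h (0.62, adjusted p = 3.24e-08 at 3 h), and CREB3L2 rose by 0.37 and 0.40. DNAJB9 was 6.76, 6.50 and 6.69 FPKM in NC, rose to 8.51, 8.49 and 10.004 at 3 h (0.38, adjusted p = 1.58e-04) and overlapped NC again at 6 h, at 6.87, 6.19 and 6.38 (-0.03, not passing). From 3 h to 6 h 1 rose and 10 fell of the 38 tested, against 14.1% and 16.3% of all genes (1 and 6 with total scaling), led by DNAJB9 (-0.42), HERPUD1 (-0.27) and DNAJB11 (-0.21). The sensors EIF2AK3 (0.34 and 0.16) and ATF6 (0.13 and 0.10) rose at both times, and ERN1 passed at 6 h (0.12). Against IL-10 of the same hour, 6 h of Torin1 gave 7 higher and 12 lower members of the 38 tested, against 23.6% and 33.7% of all genes.

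The difference of the Torin1 effect between the lines was tested directly, as the change in HCT116 minus that in HepG2 over the 9683 genes tested in both. At 6 h, 24 of 38 members had a positive difference and 3 a negative one, against 26.4% and 23.7% of all genes (18 and 5 with total scaling). At 3 h these counts were 11 and 3, against 20.4% and 19.5% (4 and 5 with total scaling). The negative differences at 6 h were XBP1, ERN1 (-0.52) and ERO1B (-0.29). XBP1 moved in opposite directions, down in HCT116 and up in HepG2, with a difference of -0.90 at 3 h and -0.78, adjusted p = 1.37e-10 at 6 h. DNAJB9 differed by 0.91 at 3 h and 0.91 at 6 h, and at 6 h SDF2L1 by 0.69, MANF by 0.67 and HSPA13 by 0.62. HSPA5, which fell in both lines, fell further in HepG2 (0.21, adjusted p = 1.95e-05). Members with no difference past the threshold at 6 h include HERPUD1 (-0.11), DNAJB11 (-0.08), SYVN1 (0.05) and ATF6 (-0.06).

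**Figure D2:**
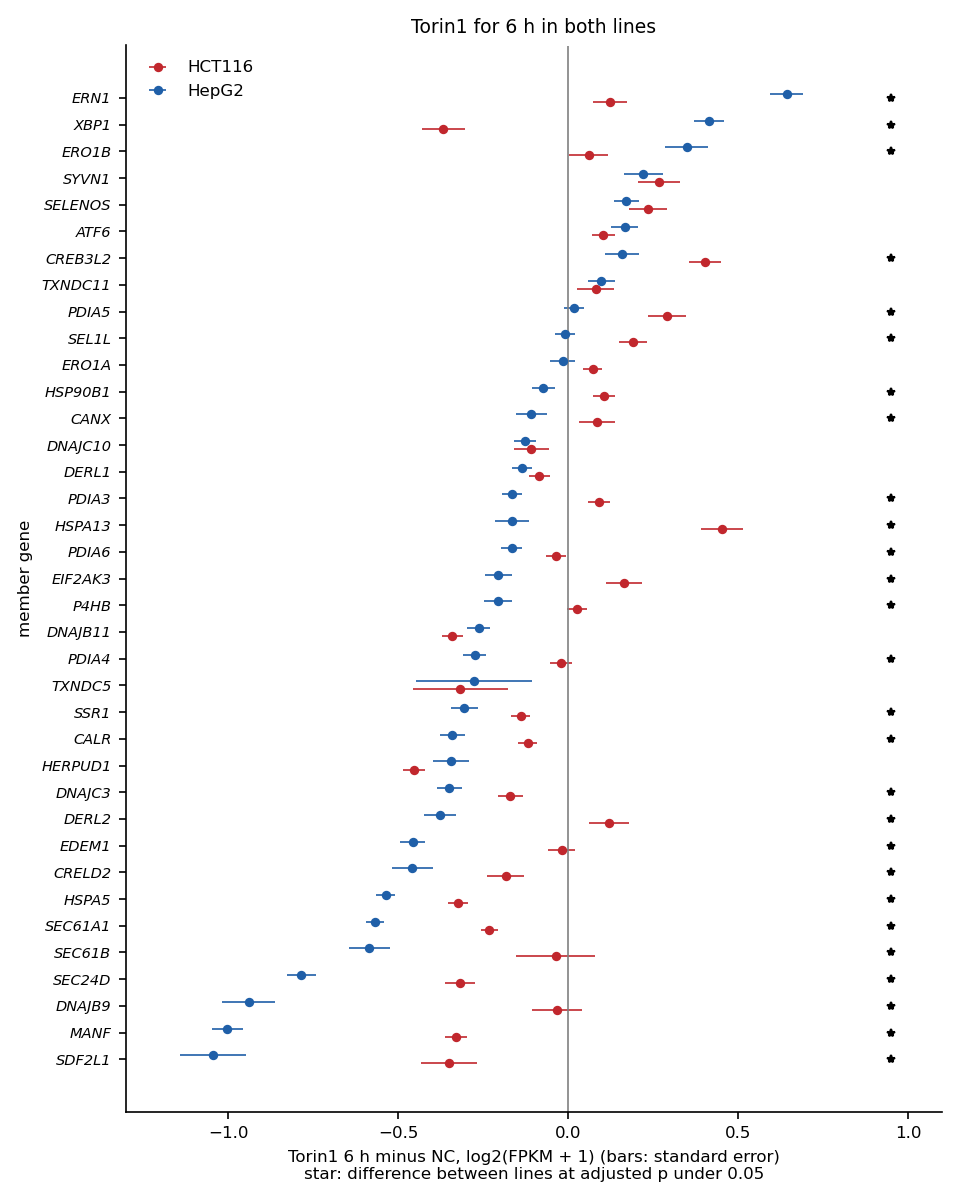
Change of each member after 6 h of Torin1 on the log2(FPKM + 1) scale (horizontal), as fitted by limma with its standard error, in HCT116 (red) and HepG2 (blue); HYOU1 is left out and a star marks a difference between the lines at adjusted p under 0.05. Members from SDF2L1 up to CALR lie left of 0 in HepG2, and XBP1 lies on opposite sides in the lines.

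IL-6 raised a set of members in HepG2, led by XBP1 and DNAJB9. At 3 h 8 rose and 2 fell of the 38 tested, against 14.5% and 19.5% of all genes. At 6 h 11 rose and 1 fell of the 38 tested, against 7.59% and 11.8% of all genes (4 and 2 with total scaling). XBP1 was 179.7, 178 and 177 FPKM in NC, 265, 259.7 and 228 after 3 h of IL-6 and 264, 262 and 253 after 6 h (log2 0.54, SE 0.04, adjusted p = 1.31e-08 at 6 h), every treated library above NC. DNAJB9 was 21.6, 19.2 and 21.4 FPKM in NC, 27.7, 24.1 and 30.2 at 3 h (0.38, adjusted p = 6.43e-04) and 27.1, 24.4 and 25.5 at 6 h (0.30, adjusted p = 0.00828). HSPA13 (0.20), MANF (0.20), SSR1 (0.19) and HSPA5 (0.10) rose at 6 h, and CREB3L2 was the member that fell (-0.24). At 3 h EDEM1 (0.21) and ERN1 (0.19) rose and SEC24D fell (-0.17, though 0.06 against IL-10). TXNDC5 passed (0.48) on few reads. Its call was lost without IL-6 replicate 1 or 2 or NC replicate 1 or 2. Between 3 h and 6 h, 6 rose and 5 fell of the 38 tested, against 11.3% and 12.2% of all genes (3 and 5 with total scaling), with SDF2L1 (0.31), SEC24D (0.29) and MANF (0.22) higher at 6 h. At 3 h the count went from 10 to 6 without IL-6 replicate 1 or NC replicate 2 or 3, and from 3 h to 6 h from 11 to 6 without IL-6 3 h replicate 3 or IL-6 6 h replicate 1 or 3. SDF2L1 lost its call between the times without the first or second of these (0.25 and 0.23). The count at 6 h went from 12 to 7 without IL-6 replicate 3, to 5 without NC replicate 2 and to 7 without NC replicate 3. DNAJB9 at 6 h did not pass without NC replicate 2 (0.24).

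With IL-10 in HepG2 the members that passed were lower, XBP1 at 3 h excepted. With IL-10 at 6 h 0 rose and 15 fell of the 38 tested, against 1.88% and 9.80% of all genes (0% and 39.5% of members). At 3 h 1 rose and 10 fell of the 38 tested, against 7.17% and 11.9% of all genes (0 and 21 with total scaling). In all, 7 passed there without the filter and 6 with only the 6 libraries compared. The largest at 6 h were HERPUD1 (-0.30), DNAJB9 (-0.25), EIF2AK3 (-0.24), CREB3L2 (-0.21), DERL1 (-0.20) and SEC24D (-0.20). HERPUD1 was 35.2, 35.1 and 35.96 FPKM in NC and 29.7, 27.3 and 28.8 after 6 h of IL-10, with no overlap. At 3 h DNAJB9 fell most (-0.33), with SEC24D (-0.24), EIF2AK3 (-0.19) and HERPUD1 (-0.18), and XBP1 was the member that rose (0.16; 0.14 and not passing without IL-10 replicate 1). The calls of HERPUD1 and SYVN1 (-0.17) at 3 h were each lost in 4 of 6 fits without 1 library, among them those without IL-10 replicate 2, NC replicate 1 and NC replicate 3. From 3 h to 6 h 0 rose and 8 fell of the 38 tested, against 6.43% and 9.57% of all genes (0 and 3 with total scaling), CREB3L2 (-0.30), XBP1 (-0.27) and SELENOS (-0.20) most. This count went from 8 to 5, 3, 5 and 4 without IL-10 3 h replicate 2, 3 h replicate 3, 6 h replicate 2 and 6 h replicate 3. Set directly against IL-10 of the same hour, which uses no NC library, IL-6 at 6 h gave 28 higher and 0 lower members of the 38 tested, against 14.4% and 9.28% of all genes (73.7% and 0% of members), with a median of 0.17 against 0.01 over all genes. XBP1 (0.65, adjusted p = 7.65e-10), DNAJB9 (0.55, adjusted p = 1.82e-05) and HERPUD1 (0.37, adjusted p = 2.67e-05) led. HSPA5 stood at 422, 418 and 430.5 FPKM with IL-6 and 353, 357 and 365 with IL-10, with no overlap (0.24, adjusted p = 1.04e-06). At 3 h the same comparison gave 12 higher and 1 lower members of the 38 tested, against 12.0% and 10.9% of all genes. The count with IL-10 at 3 h went from 11 to 7 without IL-10 replicate 1 or 2 or NC replicate 3, and to 4 without NC replicate 1. DNAJB9 at 6 h lost its call against NC in 5 of 6 such fits, all but that without NC replicate 2 (log2 -0.27 to -0.22).

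**Figure D3:**
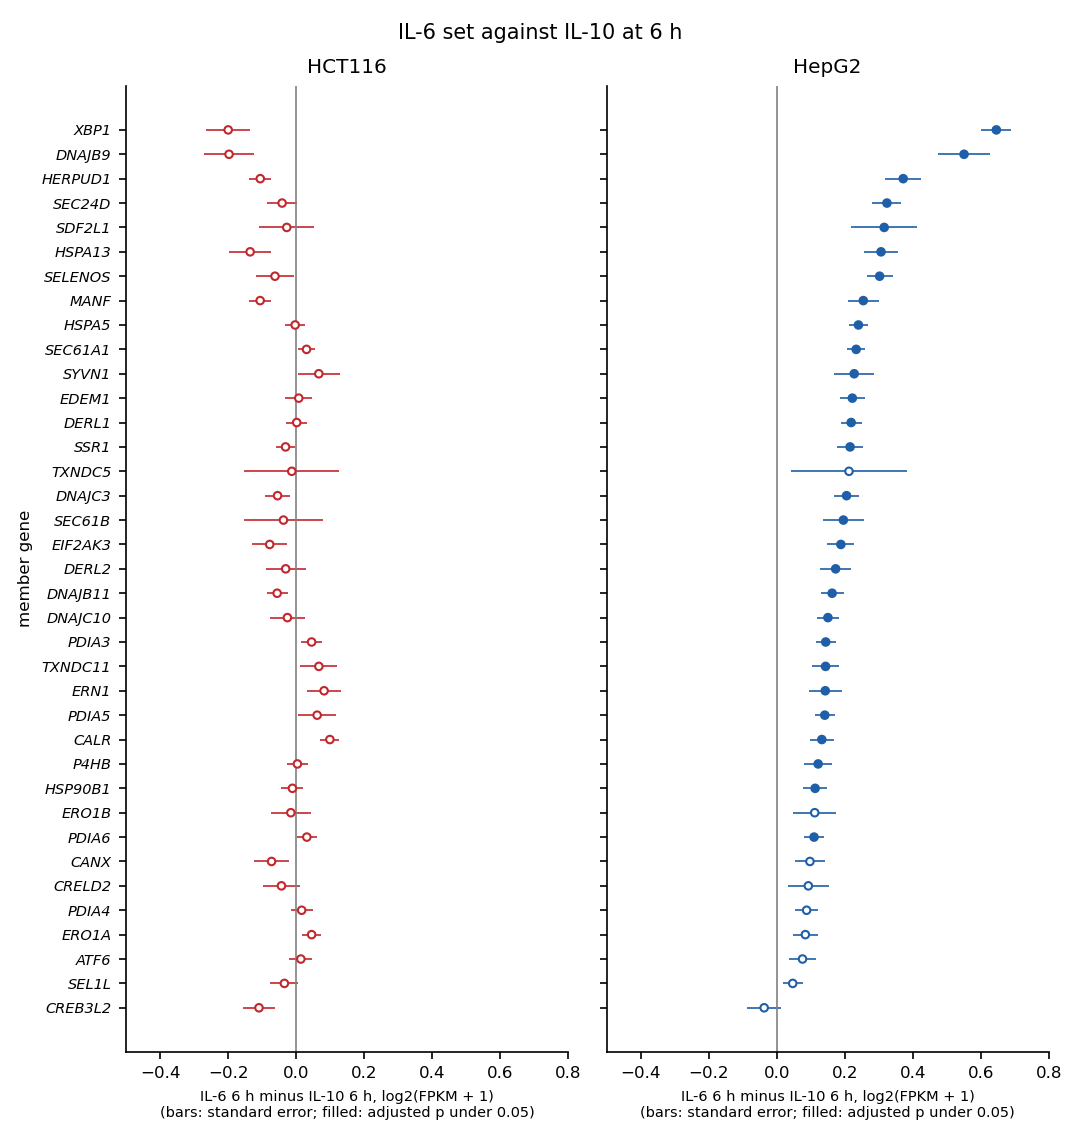
Difference of each member between IL-6 and IL-10 at 6 h on the log2(FPKM + 1) scale (horizontal), in HCT116 (left) and HepG2 (right), with its standard error; filled points passed at adjusted p under 0.05 and HYOU1 is left out. In HepG2 28 points are filled, all right of 0, and in HCT116 0 are filled.

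In HCT116 few members passed between IL-6 and IL-10 of the same hour. Against IL-10 of the same hour, IL-6 at 3 h gave 0 higher and 1 lower members of the 38 tested, against 0.167% and 0.0702% of all genes, the member being HERPUD1 (-0.15, adjusted p = 0.0484). At 6 h limma gave 0 higher and 0 lower members of the 38 tested, against 0.0965% and 0.0176% of all genes, and 8 members had an unadjusted p under 0.05. Against NC, with IL-6 at 3 h 1 rose and 9 fell of the 38 tested, against 15.9% and 15.6% of all genes (0 and 21 with total scaling). With IL-6 at 6 h 3 rose and 2 fell of the 38 tested, against 11.1% and 5.45% of all genes (0 and 16 with total scaling and 2 and 3 with recomputed median-of-ratios factors). For IL-10 at 3 h 7 rose and 8 fell of the 38 tested, against 21.8% and 16.9% of all genes (2 and 13 with total scaling). At 6 h 5 rose and 4 fell of the 38 tested, against 14.0% and 6.49% of all genes (1 and 6 so scaled). HERPUD1 fell in both: it was 13.5, 13.4 and 13.2 FPKM in NC, 10.2, 10.5 and 10.05 after 6 h of IL-6 (-0.35, adjusted p = 5.13e-06) and 11.4, 10.5 and 11.4 after 6 h of IL-10 (-0.25, adjusted p = 1.36e-04). Over the 8 treated groups of HCT116 HERPUD1 passed as lower than NC in 7, TNF-α at 3 h being the exception (-0.05). DNAJB9 (-0.29), CRELD2 (-0.22), XBP1 (-0.22) and EDEM1 (-0.16) fell with IL-6 at 3 h, and ERO1A rose at 6 h (0.14). HSPA13 rose with IL-10 at 3 h (0.34) and 6 h (0.20), the latter call being lost without IL-10 replicate 1 or NC replicate 2. HSP90B1 rose at 6 h with IL-10 (0.13). Calls of SYVN1 with IL-6 at both hours were each lost without 1 of at least 2 libraries. So were those of SEC61B (0.32), SDF2L1 (-0.23) and SYVN1 (-0.18) with IL-10 at 3 h, and that of SELENOS (0.19) at 6 h. With IL-6 at 6 h the call of HSP90B1 (0.12) was lost in 3 of 6 such fits, and that of SSR1 (0.09) in all 6. Between 3 h and 6 h 1 member rose and 1 fell with IL-6, against 11.4% and 6.95% of all genes (3 and 1 with recomputed factors; 5 in all without IL-6 3 h replicate 2 and 1 without its replicate 3). With IL-10 2 rose and 2 fell, against 11.3% and 8.71% (3 and 1 with total scaling; 2 in all without IL-10 3 h replicate 1). The count of IL-6 at 6 h went from 5 to 3 or fewer without IL-6 replicate 1 or 2 or any NC replicate. That of IL-10 at 3 h went from 15 to 9 without its replicate 1, and that at 6 h from 9 to 5 without its replicate 1 or NC replicate 3.

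The IL-6 effect differed between the lines in XBP1 and DNAJB9. As the change in HCT116 minus that in HepG2, 0 members had a positive difference at 3 h and 8 a negative one, against 18.5% and 14.8% of all genes (0 and 18 with total scaling). At 6 h 1 was positive and 8 were negative, against 10.8% and 5.03% (0 and 13 with total scaling). XBP1 differed by -0.71, adjusted p = 7.12e-09 at 3 h and -0.69, adjusted p = 4.17e-08 at 6 h. DNAJB9 differed by -0.67 and -0.44, EDEM1 by -0.37 at 3 h and HERPUD1 by -0.43 at 6 h. For the IL-10 effect at 3 h 6 differences were positive and 1 negative (15.8% and 2.63% of members, 15.6% and 8.78% of all genes). The positive share there lay near that of all genes. At 6 h the IL-10 effect differed the other way, with 13 positive and 0 negative (34.2% and 0% of members, 15.4% and 1.44% of all genes). With total scaling these were 3 and 0. HSPA13 (0.42), SEC61B (0.36) and EIF2AK3 (0.29) were the largest at 3 h and SELENOS (0.37), HSPA13 (0.31) and DNAJB9 (0.30) at 6 h. SEC61B passed in 5 and DNAJB9 in 3 of 12 fits without 1 library. SEC61B did not pass with the replicate number as a block (adjusted p = 0.0526). The IL-10 count at 6 h was 7 without IL-10 replicate 1 of HCT116 and 8 without NC replicate 3 of HepG2, and at 3 h 4 without either IL-10 replicate 1 of HCT116 or NC replicate 3 of HepG2.

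With TNF-α in HepG2, 3 of 5 sensors and transcription factors rose at each time, against 12.8% and 11.9% of all genes. Of these calls at 6 h, those of CREB3L2 and EIF2AK3 were lost in 5 and 2 of 6 fits without 1 library. Of 9 chaperones 0 passed at 3 h and 2 fell at 6 h, where 16.9% and 16.8% of all genes fell. In HCT116, 4 of 9 chaperones fell at 3 h and 2 at 6 h, against 22.4% and 17.1% of all genes. CANX, among the 4 by its named entry, did not pass in limma once its second entry was added (-0.05, adjusted p = 0.770). In HepG2 at 3 h 4 rose and 3 fell of the 38 tested, against 12.8% and 16.9% of all genes (3 and 11 with total scaling). At 6 h 5 rose and 6 fell of the 38 tested, against 11.9% and 16.8% of all genes (2 and 5 with total scaling, 5 and 3 with recomputed factors). ERN1 was 2.69, 2.80 and 2.46 FPKM in NC, 3.30, 3.05 and 3.19 at 3 h and 3.82, 3.53 and 3.68 at 6 h (log2 0.36, SE 0.05, adjusted p = 9.56e-06 at 6 h), each treated library above NC. XBP1 stood at 230.4, 221 and 229 FPKM at 3 h, above NC (0.35, adjusted p = 2.99e-06), and at 189.9, 176 and 183 at 6 h, not passing (0.04). CREB3L2 rose by 0.31 at 3 h, and SEC24D (-0.25) and DNAJC3 (-0.16) fell. A rise of SELENOS (0.12) did not hold without TNF-α replicate 3 or NC replicate 2 or 3. HSPA5 (-0.13) and HERPUD1 (-0.16) fell and EIF2AK3 rose (0.13) at 6 h. The HERPUD1 call was lost without TNF-α replicate 2 or any NC replicate (log2 -0.16 to -0.11). The EIF2AK3 call was lost without TNF-α replicate 3 or NC replicate 2. The count at 6 h went from 11 to 6 without TNF-α replicate 3 or NC replicate 2 or 3. From 3 h to 6 h 4 rose and 5 fell of the 38 tested, against 12.0% and 13.4% of all genes (8 and 1 with total scaling, 6 and 5 with recomputed factors), XBP1 (-0.31), DNAJB9 (0.22) and SEC24D (0.21) most. There 5 in place of 9 passed without TNF-α 3 h replicate 2 or 6 h replicate 1, and DNAJB9 did not pass without either. Against IL-10 at 6 h, TNF-α gave 15 higher and 0 lower members of the 38 tested, against 18.9% and 15.9% of all genes, with ERN1 (0.46), EIF2AK3 (0.37) and CREB3L2 (0.36) highest, and with HERPUD1 (0.14) and HSPA5 (0.02, not passing) on the other side of 0.

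In HCT116 with TNF-α at 3 h 4 rose and 12 fell of the 38 tested, against 19.2% and 22.4% of all genes. At 6 h 6 rose and 6 fell of the 38 tested, against 16.7% and 17.1% of all genes. With total scaling, which lowered the median of all genes by 0.11 at 3 h, these were 2 and 23 and 4 and 15. ERO1A, the oxidase that recharges P4HB and is also induced by low oxygen, rose from 29.0, 29.2 and 28.3 FPKM to 33.2, 34.3 and 34.1 at 3 h and 40.8, 41.9 and 43.3 at 6 h (log2 0.53, SE 0.03, adjusted p = 4.37e-12 at 6 h), without overlap. In HepG2 ERO1A did not pass at 6 h (0.08), and the difference between the lines passed (0.45, adjusted p = 5.69e-10). DNAJB9 was 6.76, 6.50 and 6.69 FPKM in NC, 5.16, 4.76 and 5.17 at 3 h (-0.34, adjusted p = 7.41e-04) and 6.52, 5.54 and 6.82 at 6 h, where it did not pass. SEC24D fell at both times (-0.28 and -0.22), as did SSR1 (-0.18 and -0.18). EDEM1 (-0.19) and SYVN1 (-0.19) fell and EIF2AK3 rose (0.26) at 3 h, and at 6 h DNAJC10 (0.27) and ERN1 (0.19) rose and CREB3L2 fell (-0.23). The ERN1 call was lost without TNF-α replicate 3 (0.14), and the SYVN1 call without TNF-α replicate 2 or NC replicate 3. From 3 h to 6 h 7 rose and 2 fell of the 38 tested, against 20.2% and 17.0% of all genes (14 and 2 with total scaling), ERO1A (0.30), DNAJB9 (0.27) and EDEM1 (0.23) most. Between the lines the TNF-α effect differed in 2 members upward and 3 downward at 3 h, against 10.7% and 12.2% of all genes (0 and 9 with total scaling). At 6 h it differed in 3 and 3, against 10.4% and 6.35% (1 and 5). CREB3L2 fell in HCT116 at 6 h and passed as higher in HepG2 (0.15), a call lost in 5 of 6 fits without 1 library (0.13 to 0.16). The lines differed by -0.38, adjusted p = 6.41e-05.

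**Figure D4:**
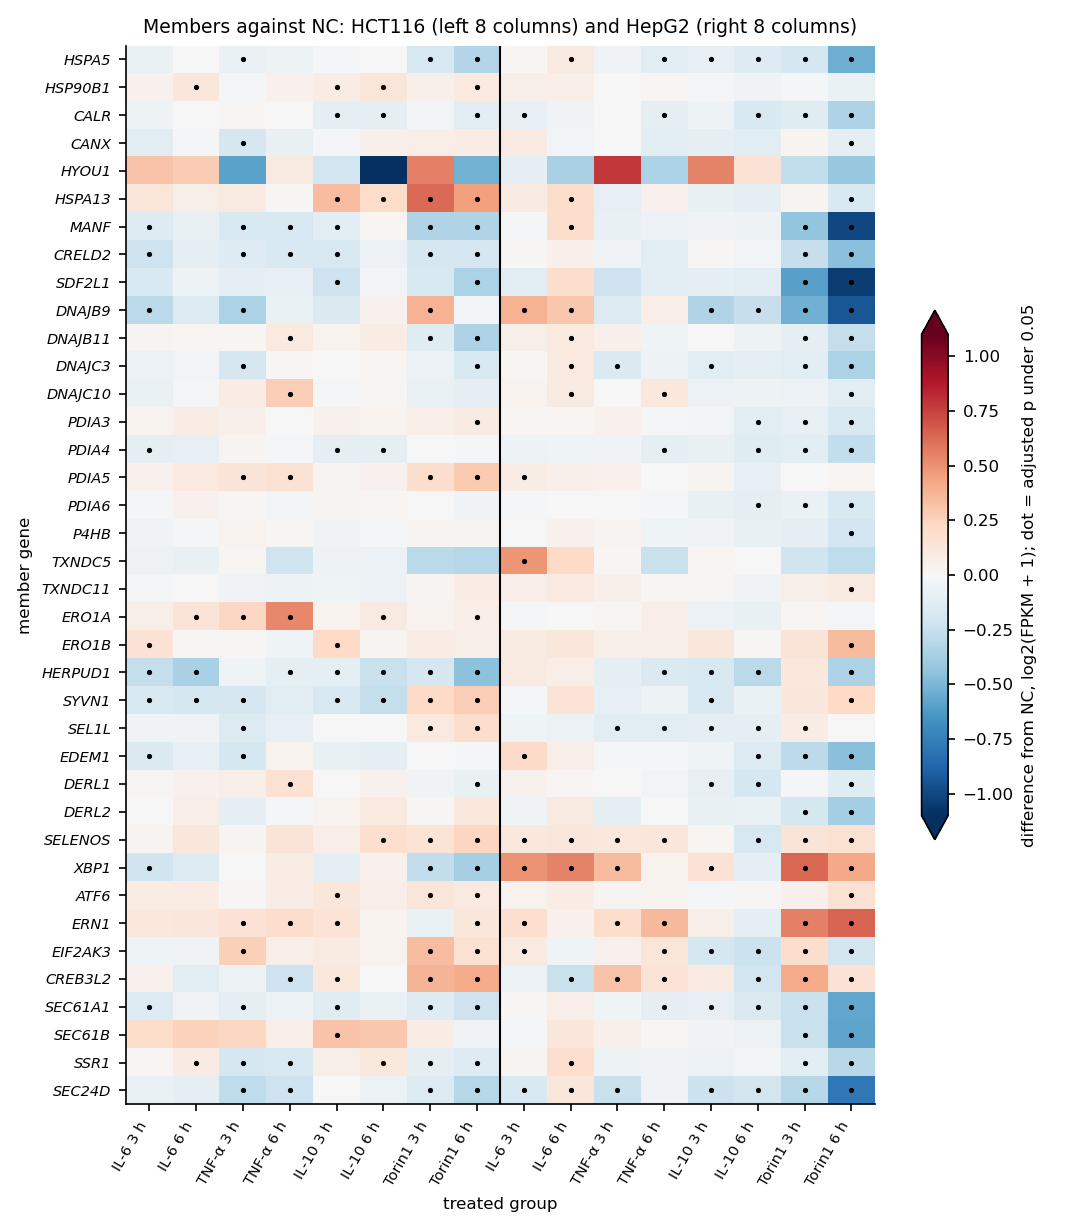
Difference from NC of the 38 tested members (rows) in the 16 treated groups (columns; HCT116 left and HepG2 right of the line), as colour on the log2(FPKM + 1) scale, with a dot where adjusted p is under 0.05. The Torin1 6 h column of HepG2 holds most dots (32) and the deepest blue under a dot, XBP1 and ERN1 are red in HepG2 except with IL-10 at 6 h, and the HYOU1 row holds strong colours without a dot.

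Over the 8 comparisons with NC in each line, HYOU1 passed in 0, and PDIA6, P4HB, TXNDC5, TXNDC11 and DERL2 in 0 in HCT116 and in 1 to 3 in HepG2. HSP90B1, which rose in 4 in HCT116, passed in 0 in HepG2, and ERO1A rose in 5 in HCT116 and passed in 0 in HepG2. The 8 comparisons of a line share their NC libraries, so calls of 1 gene are not independent, and no share over all genes is given here. SELENOS rose in 6 of 8 in HepG2 and fell in 1, while SEC61A1 fell in 5 in each line. The SELENOS calls with TNF-α at 3 h and 6 h were each lost without NC replicate 2 or 3. XBP1 rose in 6 and fell in 0 in HepG2, and rose in 0 and fell in 3 in HCT116. SEC24D fell in 6 in HepG2 and 4 in HCT116, CALR in 5 and 3, and HSPA5 in 5 and 3, with 1 rise in HepG2.

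Read across all 9 groups of a line, the sensors and transcription factors had ranges of their own. In HCT116 XBP1 group means ran from 24.8 ± 1.48 FPKM with Torin1 at 6 h to 34.2 ± 3.06 with TNF-α at 6 h, and in HepG2 from 166 ± 4.17 with IL-10 at 6 h to 276 ± 11.9 with Torin1 at 3 h. ATF6 stayed within 2.17 ± 0.0532 (NC) to 2.47 ± 0.131 FPKM (Torin1 at 3 h) in HCT116, and was called in 3 of 8 treated groups there and in 1 of 8 in HepG2. ERN1 ran from 1.89 ± 0.0882 (Torin1 at 3 h) to 2.47 ± 0.230 FPKM (TNF-α at 6 h) in HCT116, and from 2.41 ± 0.114 (IL-10 at 6 h) to 4.70 ± 0.268 (Torin1 at 6 h) in HepG2. EIF2AK3 was highest with Torin1 at 3 h in both lines, at 3.21 ± 0.117 and 8.22 ± 0.134 FPKM. HSPA5 in HepG2 was highest with IL-6 at 6 h (423 ± 6.48 FPKM) and lowest with Torin1 at 6 h (273 ± 13.1).

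The other genes of the pathway, from lists by role, were counted for Torin1 at 6 h, where 26.1% of all genes rose and 33.8% fell in HepG2 and 25.8% and 31.5% in HCT116. Among translocon, signal peptidase and glycosylation genes 1 rose and 15 fell of 22 at 6 h in HepG2, led by SPCS2 (-0.51), SEC61G (-0.43) and SSR3 (-0.41). In HCT116 2 rose and 6 fell of 22. Among COPII and KDEL receptor genes 1 rose and 16 fell of 19 in HepG2 and 2 rose and 11 fell of 19 in HCT116. KDELR3 (-0.55), which returns chaperones to the ER, was lowest in HepG2. Among other folding enzymes 4 rose and 11 fell of 25 in HepG2, FKBP14 lowest (-0.77), and 7 rose and 7 fell of 25 in HCT116. Other ERAD genes split, 5 rose and 10 fell of 20 in HepG2 and 6 rose and 8 fell of 20 in HCT116. In HCT116 the folding enzyme and ERAD counts lay near the shares over all genes. HERPUD2, the relative of HERPUD1, rose in both (0.73 and 0.76). A mixed list held other membrane-bound factors and site proteases, with NF-Y subunits, YY1 and signalling genes such as TRAF2 and MAP3K5. Of its genes 6 rose and 4 fell of 13 in HepG2 and 4 rose and 6 fell of 13 in HCT116. The heat shock list is cytosolic but for the mitochondrial HSPD1 and HSPE1. Most of its genes fell in both lines, 0 rose and 10 fell of 11 in HepG2 and 1 rose and 11 fell of 12 in HCT116. They were led by DNAJA1 in HepG2 (-1.16) and HSPA8 in HCT116 (-1.52).

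The branch of EIF2AK3, with ATF4, DDIT3 (CHOP) and genes tied to them, was counted as a list of its own. That list also holds EIF2S1 and NFE2L2, and its counts do not measure PERK activity. With Torin1 at 6 h 2 rose and 10 fell of 16 in HepG2, DDIT4 lowest (-2.96), and 4 rose and 10 fell of 16 in HCT116, CHAC1 lowest (-0.96). PPP1R15A, the phosphatase subunit that reverses PERK signalling, rose in both (0.87 and 0.93). With TNF-α at 3 h 12 rose and 2 fell of 16 in HCT116 (19.2% and 22.4% of all genes), led by BBC3 (2.31), ATF3 (1.80) and PPP1R15A (1.56). In HepG2 11 rose and 1 fell of 16 (12.8% and 16.9%), led by ATF3 (1.41). BBC3, ATF3 and PPP1R15A are also targets of other stress and inflammatory pathways. With IL-6 at 6 h in HepG2 3 rose and 3 fell of 16 in this branch and 2 rose and 0 fell of 22 in the translocon list, against 7.59% and 11.8% of all genes. In HCT116 mitochondrially encoded genes moved beside the member counts: 11 rose and 0 fell of 13 with TNF-α at 3 h, 8 rose and 0 fell of 13 and 6 rose and 0 fell of 13 with Torin1 at 3 h and 6 h, and 0 rose and 5 fell of 13 and 0 rose and 6 fell of 13 with IL-10. Their share of recovered reads was 5.62 to 6.02% in NC, 6.49 to 6.69% with TNF-α at 3 h and 6.18 to 6.79% and 6.36 to 6.75% with Torin1 at 3 h and 6 h. With IL-10 it was 5.03 to 5.65% and 4.87 to 5.28%. The part of these genes in the member counts was not tested. Of 6 blood cell markers 2 were tested in HepG2, LYZ at 1311 ± 8.26 FPKM and CD14 at 0.845 ± 0.137 in NC, and 0 in HCT116. With Torin1 at 6 h in HepG2 LYZ rose (0.32) and CD14 fell (-0.42), and CD14 rose with IL-6 (0.77 at 3 h and 0.93 at 6 h). Of 7 fibroblast and endothelial markers 1 was tested in each line (summed levels up to 1.87 FPKM in HCT116 and 1.52 in HepG2). PDGFRB rose with Torin1 at 6 h in HepG2 (0.46) and fell with TNF-α (-0.18 and -0.18). In HCT116 COL1A1 rose at 3 h with each treatment (IL-6 0.19, IL-10 0.18, TNF-α 0.44, Torin1 0.34). The part of these markers in the member results was not tested.

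By the likeness of group means over the 9 groups of a line, the genes closest to HSPA5 in HepG2 were SEC61A1 (Pearson r 0.994), SPCS3 (0.986), SLC35B1 (0.976), YARS1 (0.976) and JPT1 (0.976), among 7168 genes with at least 5 FPKM in a group mean. Those closest to SDF2L1 there were MANF (0.988), NANS (0.983), SLC35B1 (0.982), FKBP14 (0.9803) and DERL2 (0.979). In HCT116 the genes closest to HSPA5 were TARDBP (0.992), IDH3A (0.990), PPID (0.990), TMEM199 (0.990) and INTS7 (0.990), among 6859 genes. Those closest to SDF2L1 were PHB1 (0.955), SEC61A1 (0.943), PIP4K2C (0.941), SGTA (0.929) and TOMM40 (0.926). In HepG2 3 of these 9 genes are members, SEC61A1, MANF and DERL2, and in HCT116 1 of 10, SEC61A1. These values describe 9 points that share the NC group and the library scaling, and in HepG2 the Torin1 groups lie farthest from the rest.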

How the data were processed

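Poly(A) RNA of 54 libraries was sequenced in read pairs, and the authors deposited 1 table of FPKM values per gene and library. Per the submitters' processing notes FastQC, HISAT2, StringTie and DESeq2 were used with GRCh38 (versions, settings and annotation: not given in the sources used here). FPKM as deposited was the unit analysed. Their low values step in whole reads, recovered for 36448 of 36451 genes above 0 (99.99%, tolerance 0.01 reads), which gave the read totals. Fold changes and p-values of 16 comparisons of unnamed groups in that deposited table were not used.

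Values were taken as log2(FPKM + 1), filtered at 1 FPKM in at least 3 of the 27 libraries of a line (11395 genes in HCT116, 11280 in HepG2), and fitted with limma 3.58.1 in R 4.3.3 (trended variance, 9 groups of a line in 1 fit, no block, Benjamini-Hochberg adjustment over all genes tested). Comparisons between the lines used 1 fit of both lines. The scripts were tested on simulated data. Samples were grouped by their labels; the series' text calls the replicates biological without naming separate cultures, so the p-values may reflect technical spread alone.

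The members and the gene lists were chosen with earlier results of these data known. Per sample values are given for HSPA5, XBP1, DNAJB9, HERPUD1, SDF2L1, ATF6, ERN1, EIF2AK3 and the members of largest change; up to 6 called members of largest change are named per comparison with NC, up to 3 per comparison of times or lines and per list, and 5 most alike genes for HSPA5 and SDF2L1. Marker lists covered hepatocytes, blood cells, colon epithelium, fibroblasts and endothelium. Alternatives were a pseudocount of 0.1, no filter, other scalings, the replicate block, only the 6 libraries compared, IL-10 of the same hour as control, voom on the recovered reads and each library left out. Adding copy entries to their gene and leaving HYOU1, CANX and TXNDC5 out of the counts were chosen after seeing the data. In bulk RNA a lower level of a message per cell and fewer cells that make it cannot be told apart.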

Additional observations from a re-analysis of the deposited data

Results flagged for a closer look

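The changes listed here differed between 3 h and 6 h of a treatment, or between the lines, by a test of the difference itself (limma, adjusted p of at most 0.0484), and are given on the log2(FPKM + 1) scale. From 3 h to 6 h HCT116 differed with IL-6 in CREB3L2 (-0.16) and SEC61A1 (0.11), and with TNF-α in DNAJB9 (0.27), EDEM1 (0.23) and ERO1A (0.30). In the same line the times differed with IL-10 in DNAJB9 (0.21), ERO1B (-0.19) and MANF (0.15), and with Torin1 in DNAJB11 (-0.21), DNAJB9 (-0.42) and HERPUD1 (-0.27). From 3 h to 6 h HepG2 differed with IL-6 in MANF (0.22), SDF2L1 (0.31) and SEC24D (0.29), and with TNF-α in DNAJB9 (0.22), SEC24D (0.21) and XBP1 (-0.31). There the times differed with IL-10 in CREB3L2 (-0.30), SELENOS (-0.20) and XBP1 (-0.27), and with Torin1 in HERPUD1 (-0.46), MANF (-0.57) and SEC24D (-0.47). 

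Between the lines, as HCT116 minus HepG2, there were differences of the IL-6 effect at 3 h in DNAJB9 (-0.67), EDEM1 (-0.37) and XBP1 (-0.71), and of the TNF-α effect at 3 h in CREB3L2 (-0.36), EIF2AK3 (0.21) and XBP1 (-0.35). Further differences were those of the IL-10 effect at 3 h in EIF2AK3 (0.29), HSPA13 (0.42) and SEC61B (0.36), and of the Torin1 effect at 3 h in DNAJB9 (0.91), ERN1 (-0.63) and XBP1 (-0.90). At the later hour the lines differed in the IL-6 effect at 6 h in DNAJB9 (-0.44), HERPUD1 (-0.43) and XBP1 (-0.69), and in the TNF-α effect at 6 h in CREB3L2 (-0.38), DERL1 (0.19) and ERO1A (0.45). Further differences were those of the IL-10 effect at 6 h in DNAJB9 (0.30), HSPA13 (0.31) and SELENOS (0.37), and of the Torin1 effect at 6 h in DNAJB9 (0.91), SDF2L1 (0.69) and XBP1 (-0.78). EIF2AK3 in the TNF-α difference at 3 h did not pass without TNF-α replicate 3 of HCT116 (0.18), and CREB3L2 with IL-6 between times in HCT116 not without replicate 3 of either hour. DNAJB9 and ERO1B with IL-10 between times in HCT116 did not pass in 4 and 3 of 6 fits without 1 library, among them those without replicate 1 of either hour.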

How the results depend on the processing

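The 33 counts of called members stayed within 1.5 times with a pseudocount of 0.1, the replicate block, voom on recovered reads, copy entries added and HYOU1, CANX and TXNDC5 left out. Replicate numbers did not pair the libraries (no comparison had all 3 same-numbered correlations over 0.1; in 3 every sample correlated best with its own number), and with the replicate block 144 of 145 named calls stayed, SEC61B in the IL-10 difference at 3 h being lost (0.36, adjusted p = 0.0526). Of the 145 named calls, 31 were lost in at least 1 fit without 1 library and 0 changed sign there; no named Torin1 call against NC was lost in either line. Named calls lost with their sign kept were 21 without the filter, 19 with total scaling, 3 with recomputed factors, 1 with a pseudocount of 0.1 and 4 with voom; 19 of 118 were lost with only the 6 libraries and 15 of 71 against IL-10. The causes of the shifts given next were not tested.

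Without the filter the counts were, in HCT116, 9 for IL-10 at 3 h, 3 for IL-6 at 6 h and 2 for IL-10 between times. In HepG2 they were then 5 for IL-6 at 3 h, 7 for IL-10 at 3 h, 7 for IL-6 at 6 h, 7 for TNF-α at 6 h, and 6, 5 and 5 between times for IL-6, TNF-α and IL-10, and 8 for the IL-10 difference between lines at 6 h. More genes were tested there. Recomputed median-of-ratios factors gave 4 for IL-6 between times in HCT116. Total scaling gave in HCT116 21 and 25 for IL-6 and TNF-α at 3 h, 16 and 19 at 6 h, and 16 and 7 between times for TNF-α and Torin1; in HepG2 14 and 21 for TNF-α and IL-10 at 3 h, 6 and 7 for IL-6 and TNF-α at 6 h, and 3 for IL-10 between times; and for differences between lines 18, 9 and 9 for IL-6, TNF-α and Torin1 at 3 h and 3 for IL-10 at 6 h. With only the 6 libraries compared the counts were 3 for IL-10 at 6 h in HCT116, 4 and 6 for IL-6 and IL-10 at 3 h in HepG2, 1 and 7 between times for IL-10 and Torin1 in HCT116, and 2 and 3 for IL-6 and IL-10 in HepG2. Against IL-10 the counts were 1 and 0 for IL-6 at 3 h and 6 h in HCT116, 3 for TNF-α at 3 h and 28 for IL-6 at 6 h in HepG2.

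Signs turned for SSR1 with IL-6 at 6 h in HCT116 under total scaling (-0.0065), and against IL-10 for SYVN1 with IL-6 in HCT116 (0.0055 at 3 h and 0.067 at 6 h), HSP90B1 (-0.011) and SSR1 (-0.031) with IL-6 at 6 h in HCT116, SEC24D with IL-6 at 3 h in HepG2 (0.064), and HERPUD1 (0.14) and HSPA5 (0.016) with TNF-α at 6 h in HepG2.

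Without 1 library the counts ran, in HCT116, from 9 to 13 for IL-10 at 3 h, 5 to 9 for IL-10 at 6 h, 2 to 4 for IL-6 at 6 h, and between times 2 to 5 for IL-10 and 1 to 5 for IL-6. In HepG2 they ran from 6 to 9 for IL-6 and 4 to 9 for IL-10 at 3 h, 5 to 12 for IL-6 and 6 to 10 for TNF-α at 6 h, and between times 3 to 7 for IL-10, 6 to 10 for IL-6 and 5 to 10 for TNF-α. For the IL-10 difference between lines they ran from 4 to 8 at 3 h and from 7 to 14 at 6 h. Depth limits TXNDC5, HYOU1 and ERO1B, with at least 50, 108 and 305 reads in HCT116 and 164, 294 and 208 in HepG2.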
